A study of Drosophila melanogaster with 4 samples.

Results

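A set of 9 genes of blood cell identity and phagocytosis was followed in Drosophila S2 cells, a cultured line of hemocyte character. The genes were chosen by name and comprised the transcription regulators srp and ush, the receptors crq, drpr, NimC1, eater and Sr-CI, and the hemocyte markers Hml and He. All 9 were found among the 17697 genes of the expression tables. Poly(A)+ RNA was sequenced as 50 bp reads from wild type S2 cells of late embryonic origin, all grown at 27 °C in DMEM with 10% serum. The heat shock group (n = 2 libraries) was held at 37 °C for 1 h and then returned to 27 °C for 1 h, and the untreated group (n = 2 libraries) had no stress. The heat shock replicates were lysed separately, whereas nothing states that the untreated replicates were separate cultures, so p-values measure the spread between these libraries, which may be technical. Both groups are a single transformed cell line, without the blood cell types of the fly beside it.

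Hemocytes of the fly are mostly plasmatocytes, macrophage-like cells that engulf dying cells and microbes. Their fate in the embryo depends on the GATA factor Serpent (srp), whose activity is tuned by the FOG-family cofactor U-shaped (ush). Engulfment starts at surface receptors of the CD36-related, Nimrod, Draper and class C scavenger families and proceeds through Rac-driven actin remodelling to phagosome maturation.

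The libraries held 10602190 to 11988483 estimated counts after heat shock and 10221418 to 10354706 without stress. Of 16 listed heat shock genes, 15 were matched, and all 15 were higher in the stressed cells. They took 21.1 to 23.3% of counts after heat shock and 0.580 to 0.617% in untreated cells. This share lowers every other gene in units set by the library total, such as TPM (transcript abundance corrected for length and brought to a fixed total). Counts were therefore compared as CPM (counts relative to the library total) scaled by the trimmed mean of M values (TMM), a scaling that assumes most genes keep their level. Under it 1897 genes were called higher and 1659 lower of 8784 tested, where called means an adjusted p under 0.05 in edgeR's quasi-likelihood test. Scaling by library totals only moved the all-gene median of the log2 fold change by -0.53 and turned the split into 778 higher and 6290 lower. Totals without the heat shock genes moved the median by -0.18 (1300 higher, 3524 lower), log2(TPM + 1) by -0.48 (757 higher, 6109 lower) and log2(TPM + 0.1) by -0.52 (737 higher, 6066 lower). DESeq2 with its own size factors moved it by 0.13, over a larger set of 14297 genes, with 1216 higher and 592 lower. edgeR with TMM and no low count filter moved it by 0.11 over as many genes, so the 0.13 is not a measure of the size factors. These data hold no measure of total RNA per cell, so an absolute direction cannot be told apart from the scaling.

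The 9 genes fell into a set of 3 that were abundant and a set of 6 that were scarce. In untreated cells crq, ush and srp exceeded 50 TPM, drpr was near 3 TPM, and the other 5 were under 1 TPM. Neighbours in the order crq, ush, srp and drpr did not overlap between the 2 untreated libraries. The values of eater (0.42 and 0.21 TPM) and Hml (0.32 and 0.27 TPM) overlapped, Sr-CI lay below both (0.17 and 0.08 TPM), and NimC1 and He were listed at 0. Among genes detected in untreated cells, crq stood at percentile 94.7, ush at 91.7, srp at 88.1 and drpr at 39.9 by TPM.

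**Figure D1:**
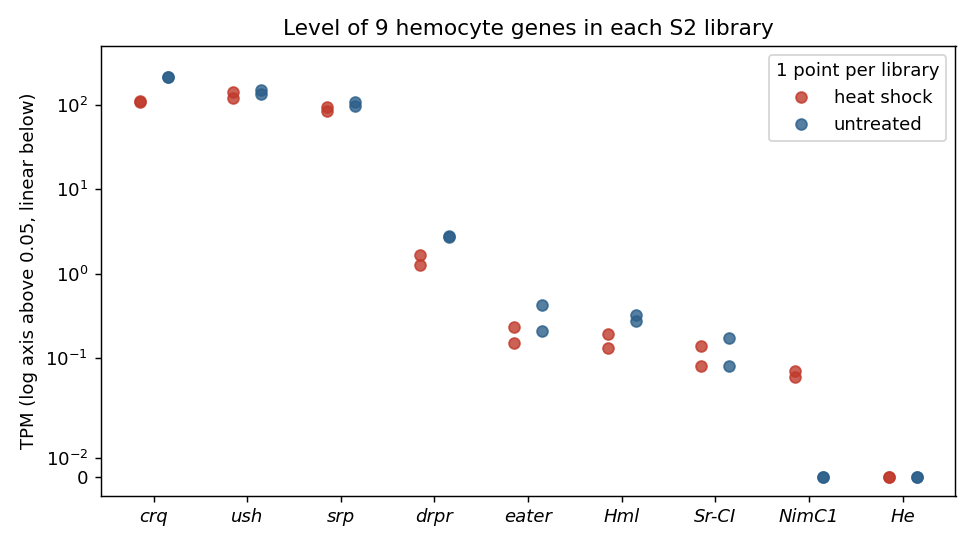
TPM of each of the 9 genes (log axis above 0.05 TPM, linear below) in 2 heat shock and 2 untreated libraries, 1 point a library. crq, ush and srp lie between 85.1 and 214 TPM in all libraries, and He is at 0 in all of them.

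Of the 9 genes, 5 passed the filter on low counts and were tested, and 3 of these 5 were called after heat shock, against 40.5% of all genes tested. srp and ush were called higher (21.6% of all genes tested were) and crq was called lower (18.9% of all genes tested were). The directions of srp and ush held under TMM and under totals without heat shock genes, and turned to negative values under library totals only and under both TPM scales. The direction of crq was the same under all 14 alternatives. The scalings that reversed srp and ush move genes downward as a whole, so they could not have turned crq positive. In a bulk sample of this kind, fewer cells carrying an RNA and less of it per cell cannot be told apart.

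**Figure D2:**
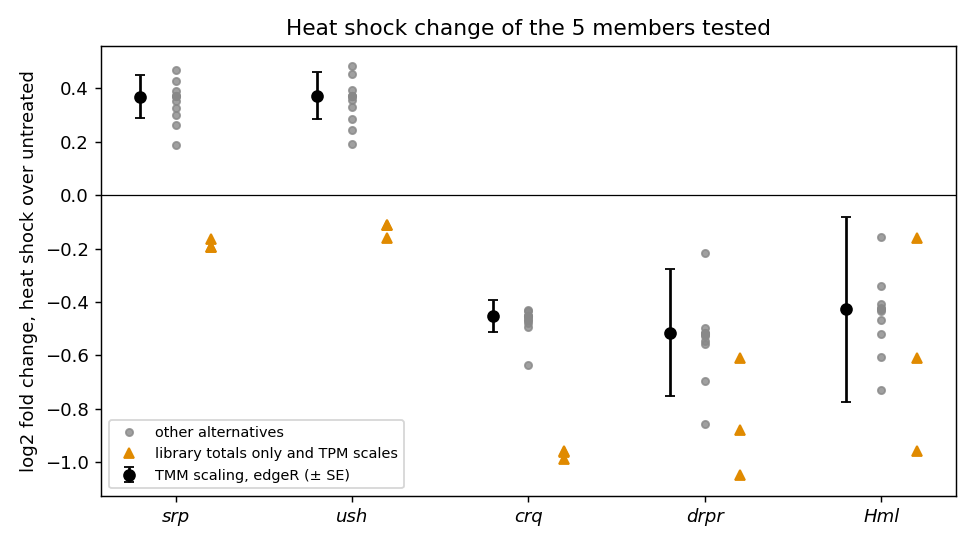
log2 fold change (heat shock over untreated) of the 5 genes tested: black, TMM scaling in edgeR with its standard error; orange triangles, library totals only and the TPM scales; grey, the other alternatives. The triangles of srp and ush lie below 0 while their other points lie above it, and every point of crq lies below 0.

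The GATA factor gene srp (FBgn0003507, 3R:15986152-16004085, plus strand, genome release 6) is required to make embryonic blood cells and acts upstream of most hemocyte genes. It had 2740 and 2187 estimated counts after heat shock and 2357 and 2659 in untreated cells. As TMM-scaled levels these were 273 and 250 CPM after heat shock, against 188 and 217 CPM in untreated cells. Both stressed libraries lay above both untreated ones on this scale, and below both of them in TPM (93.4 and 85.1 TPM after heat shock, 96.8 and 108 TPM in untreated cells). Mean levels were 262 ± 16.2 CPM after heat shock and 203 ± 20.1 CPM in untreated cells (SD, n = 2 each). The log2 fold change was 0.37 ± 0.08 (SE; adjusted p = 0.00584 in edgeR). Of 14 alternatives 12 called the gene, and these include library totals only, which called it in the other direction (-0.16, adjusted p = 0.0499 in edgeR). A long non-coding RNA gene on the same strand, lncRNA:CR44133, shares 938 bp of exon with srp (16.1% of srp's exon length). It had 49.6 and 34.6 counts after heat shock and 46.1 and 76.3 in untreated cells, which is small beside srp.

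The cofactor gene ush (FBgn0003963, 2L:476220-540560, plus strand) encodes a zinc finger protein that binds GATA factors and restrains alternative blood cell fates. It had 4553 and 3359 estimated counts after heat shock and 3815 and 4200 in untreated cells. On the TMM scale these were 454 and 384 CPM after heat shock, against 305 and 342 CPM in untreated cells. The groups did not overlap in CPM, with the lower stressed library above the higher untreated one. In TPM they did overlap (143 and 121 TPM after heat shock, 135 and 150 TPM in untreated cells). Means were 419 ± 49.1 CPM and 324 ± 26.5 CPM (heat shock and untreated, SD, n = 2 each). The log2 fold change was 0.37 ± 0.09 (SE; adjusted p = 0.00925 in edgeR). ush shares 524 bp of exon (7.81% of its own) with lncRNA:CR46258 on the same strand, which had 55.4 and 74.1 counts after heat shock and 41.0 and 53.2 in untreated cells. The opposite-strand gene cbt overlaps ush without a shared exon base.

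The scavenger receptor gene crq (croquemort, FBgn0015924, 2L:448254-453024, minus strand) encodes a CD36-related receptor with which macrophages of the embryo take up apoptotic cells. It had 1855 and 1565 estimated counts after heat shock, against 3099 and 3071 in untreated cells. TMM-scaled levels were 185 and 179 CPM after heat shock and 248 and 250 CPM in untreated cells. The groups stood apart on every scale, with both stressed libraries low. In TPM the levels were 112 and 107 after heat shock, against 214 and 213 in untreated cells. The mean fell to 182 ± 4.16 CPM after heat shock, against 249 ± 1.89 CPM in untreated cells (SD, n = 2 each). The log2 fold change was -0.45 ± 0.06 (SE; adjusted p = 0.000405 in edgeR), a level of 0.731 times that of untreated cells, and it ranged from -0.99 to -0.43 over the alternatives, all of which called it. The deposited posterior standard deviation of its count was 3.94 to 6.10 reads in the 4 libraries. crq lies 23.2 kb from ush on 2L, and the pair moved in opposite directions under TMM.

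The crq exons overlap those of expanded (ex), a gene on the opposite strand, by 448 bp, which is 15.7% of crq's exon length. ex, chosen after its values were seen because of this overlap, had 4397 and 3291 counts after heat shock and 6201 and 6647 in untreated cells (log2 fold change -0.35 ± 0.08, adjusted p = 0.00899 in edgeR). The strand setting of the counting is not given in the sources used here. In each library the fractions of the crq and ex estimates complete each other to whole reads (1855.49 and 4396.51 in heat shock replicate 1). Reads were thus divided between these opposite-strand genes, and those of the shared stretch cannot be assigned with certainty to either. The part of the shared stretch in the crq value was not tested.

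The engulfment receptor gene drpr (draper, FBgn0027594, 3L:1715595-1731107, minus strand) is the fly counterpart of C. elegans CED-1 and serves glia and hemocytes in clearing dead cells. It was scarce, with 28.4 and 38.0 estimated counts after heat shock and 63.0 and 62.0 in untreated cells. This equalled 2.83 and 4.35 CPM after heat shock, against 5.04 and 5.06 CPM in untreated cells. Both stressed libraries were lower, and they differed from each other more than the untreated pair did. The log2 fold change of -0.51 ± 0.24 (SE) did not pass the test (adjusted p = 0.11 in edgeR). The call turned on 1 library: without heat shock replicate 2 the value was -0.86 (adjusted p = 0.0188 in edgeR), and without heat shock replicate 1 it was -0.22 (adjusted p = 0.593 in edgeR). Oseg4, a gene on the same strand that shares exon sequence with drpr (2.42% of drpr's exon length), had 14.6 and 13 counts after heat shock and 0 and 0 in untreated cells. In heat shock replicate 1 the fractions of the drpr and Oseg4 estimates complete each other to whole reads (28.41 and 14.59). The posterior standard deviation of the drpr count there was 0.59 reads. The part of this division in the drpr value was not tested.

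The clotting gene Hml (Hemolectin, FBgn0029167, 3L:13846054-13860001, plus strand) is the usual marker of larval plasmatocytes, and its promoter drives most hemocyte transgenes. It had 10 and 13 estimated counts after heat shock and 22 and 19 in untreated cells. In TPM it reached 0.13 and 0.19 after heat shock, against 0.32 and 0.27 in untreated cells. Each library held few reads of it, and the lower stressed pair did not pass the test (log2 fold change -0.43 ± 0.35 SE, adjusted p = 0.347 in edgeR). Among alternatives, library totals only called it (-0.96, adjusted p = 0.0208 in edgeR).

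The remaining 4 genes did not pass the filter. eater (FBgn0243514, 3R:27095867-27099679, minus strand), a Nimrod-family receptor for bacteria, had 5 and 3 counts after heat shock and 8 and 4 in untreated cells. Without the filter its log2 fold change was -0.22 (adjusted p = 0.847 in edgeR). Sr-CI (FBgn0014033, 2L:4121702-4124153, plus strand), a class C scavenger receptor that binds bacteria, had 2 and 1 counts after heat shock and 2 and 1 in untreated cells. NimC1 (FBgn0259896, 2L:13973158-13976769, minus strand), a phagocytosis receptor that carries the P1 antigen of plasmatocytes, had 1 and 1 counts after heat shock and 0 and 0 in untreated cells. He (Hemese, FBgn0028430, 2L:13972096-13972947, minus strand), a sialophorin-like surface protein of hemocytes, had 0 in all 4 libraries. A count of 0 allows up to 3 counts, or 0.299 and 0.343 CPM after heat shock and 0.240 and 0.245 CPM in untreated cells, for counting error only. For NimC1, Sr-CI and He no fold is given, since both groups lay at or under that limit, and a change was not detectable at this depth.

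NimC1 and He sit 210 bp apart inside the Nimrod gene cluster (2L:13957539-14048863), which was read gene by gene because 2 of the 9 genes lie in it. The files list 21 genes there, 10 of them Nimrod genes that encode EGF-repeat proteins of phagocytosis and immunity. No Nimrod gene had over 4 counts in any library, and NimB1, NimB5 and NimC2 had 0 in all. Summed Nimrod counts were 9 and 9 after heat shock and 8 and 5 in untreated cells. A single gene of the stretch passed the filter. It was bgm, a fatty acid metabolism gene named after its values were seen, with 232 and 224 counts after heat shock and 228 and 200 in untreated cells. Reads were thus placed inside the stretch, while the Nimrod genes around it were near 0 in both groups.

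**Figure D3:**
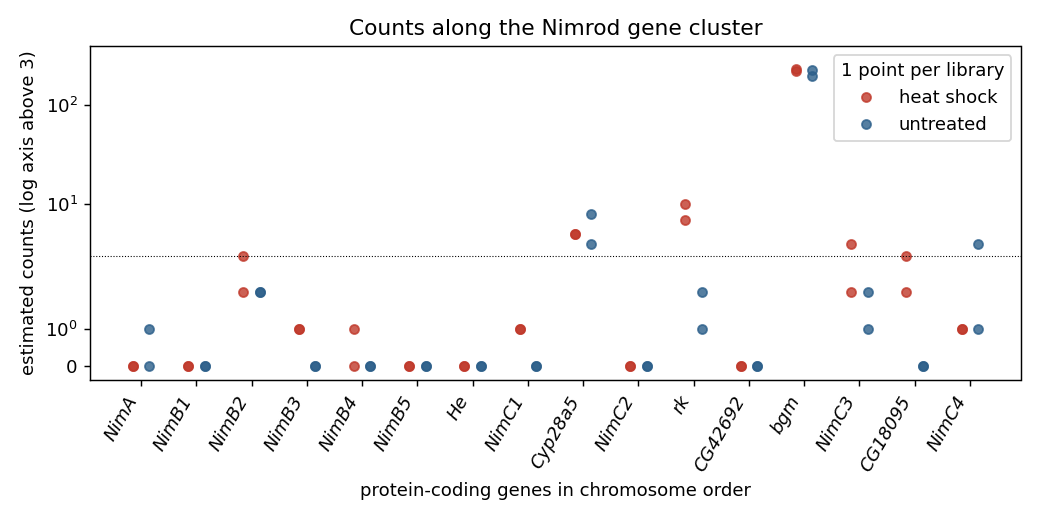
Estimated counts (log axis above 3, linear below) of the genes of the Nimrod cluster in heat shock and untreated libraries, 1 point a library, with a dotted line at 3 counts. bgm lies between 200 and 232 counts, and no Nimrod gene exceeds 4.

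Ratios of 2 genes inside a library do not depend on how libraries are scaled. They were added after the values were seen and are given as a description. The count ratio of srp to crq was 1.48 and 1.40 after heat shock, against 0.761 and 0.866 in untreated cells. That of ush to crq was 2.45 and 2.15 after heat shock and 1.23 and 1.37 in untreated cells. Both ratios were higher in each stressed library than in each untreated one, by 1.77 times on average. The ratio of ush to srp was 1.66 and 1.54 after heat shock and 1.62 and 1.58 in untreated cells, and the groups overlapped. The ratio of drpr to crq also overlapped (0.0153 and 0.0243 after heat shock, 0.0203 and 0.0202 in untreated cells). In TPM, which takes gene length into account, ush ranked above crq and crq above srp in both stressed libraries, while crq ranked first in both untreated ones.

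**Figure D4:**
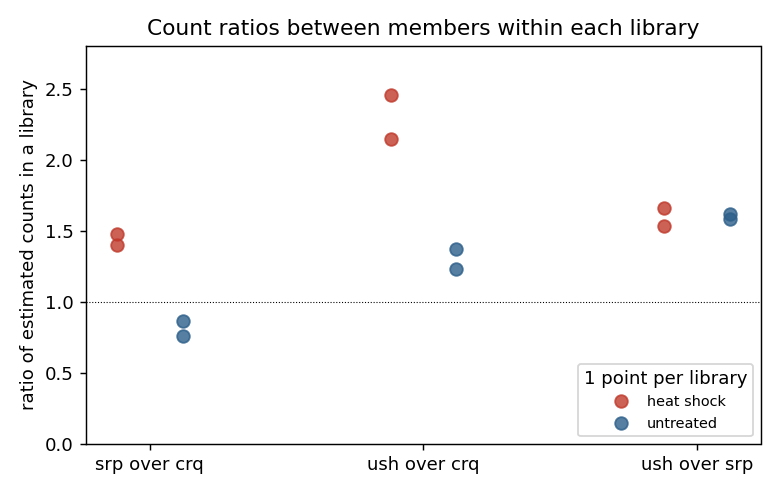
Ratio of estimated counts between 2 genes in the same library, in 2 heat shock and 2 untreated libraries, 1 point a library, with a dotted line at 1. The ratios of srp and of ush to crq are higher after heat shock, with srp to crq at 1.40 to 1.48 against 0.761 to 0.866, and the ush to srp points overlap.

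Measured against all genes tested, whose median log2 fold change was -0.02, srp lay above 79.6% of genes and ush above 79.7%. crq lay above 11.9% of genes, Hml above 13.1% and drpr above 9.32%. Subtracting the all-gene median under each of 5 scalings left srp at 0.31 to 0.39, ush at 0.40 to 0.43 and crq at -0.45 to -0.42. drpr ranged from -0.49 to -0.10, and Hml from -0.40 to 0.35. The scalings of counts differ by nearly the same shift for all genes, which this subtraction removes, so their agreement was set by construction. The genes with the most similar levels over the 4 libraries, by Euclidean distance in log2(CPM + 1), were Pp1alpha-96A for srp (distance 0.0847), Rac1 for ush (0.132), dome for crq (0.0870), CG12713 for drpr (0.0719) and CG14785 for Hml (0.0821). Such a distance over 4 libraries reflects level as well as change.

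The cell line was checked against plasmatocyte markers. Of 9 markers 4 reached 1 TPM in untreated cells, namely crq, the collagen IV genes Col4a1 (27.1 TPM) and vkg (14.6 TPM), and the peroxidasin gene Pxn (1.28 TPM). The defining larval markers Hml, NimC1, eater and He, with Sr-CI, were under 1 TPM, so the plasmatocyte markers found here were crq and matrix genes. Summed marker levels were 147 and 143 TPM after heat shock, against 260 and 254 TPM in untreated cells, and crq made up most of each sum. Of the 5 plasmatocyte markers tested, crq was called lower and 2 were called higher under TMM (18.9% and 21.6% of all genes tested were). The higher genes were vkg (log2 fold change 0.29, adjusted p = 0.0125 in edgeR) and Col4a1 (0.23, adjusted p = 0.0344 in edgeR). Both turned negative under library totals only and log2(TPM + 1). With DESeq2 and under totals without heat shock genes both stayed positive, but neither was called. The crystal cell gene PPO2, a prophenoloxidase, had 9.17 and 9.01 TPM after heat shock and 12.8 and 13.3 TPM in untreated cells, and under TMM it was not called (adjusted p = 0.993 in edgeR, with an SE of 0.12 on the log2 scale). The called gene of that list, the zinc finger gene peb, was higher (38 and 33 counts after heat shock, 19 and 14 in untreated cells, log2 fold change 1.5, adjusted p = 0.00266 in edgeR), while the crystal cell factor lz had at most 3 counts. The lamellocyte genes gave no single direction. PPO3, at a mean of 27.1 TPM in untreated cells and so level with Col4a1, was lower after heat shock (log2 fold change -0.57, adjusted p = 0.00208 in edgeR). ItgaPS4 was higher (179 and 159 counts after heat shock, 13.2 and 12 in untreated cells), and atilla was at 0 in all libraries.

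Of 19 listed hemocyte transcription factors other than srp and ush, 10 passed the filter and 9 did not. Of the 10 tested, 6 were called, each of them higher (40.5% of all genes tested were called, 21.6% higher), and 2 of the 6 kept a positive sign under library totals only. These were the NF-kappaB genes dl (0.71 under TMM) and Dif (0.67 under TMM). The median log2 fold change of the 10 was 0.30, against -0.02 for all genes tested. The highest untreated levels were those of Stat92E, the JAK/STAT effector (264 TPM), zfh1 (184 TPM) and Rel (177 TPM). The early glial and hemocyte factors gcm and gcm2, and the lineage factors lz and kn, did not pass the filter.

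Some other GATA factor genes were also transcribed, and those given here were named after their values were seen. pnr, which lies 22.0 kb from srp on 3R, had 112 and 108 TPM after heat shock and 164 and 161 TPM in untreated cells, above srp in untreated cells. It was not called (log2 fold change -0.04, adjusted p = 0.586 in edgeR), and the srp to pnr count ratio was 1.3 and 1.24 after heat shock, against 0.891 and 1.01 in untreated cells. GATAd had 110 and 95.8 TPM after heat shock and 114 and 113 TPM in untreated cells (log2 fold change 0.38, adjusted p = 0.00317 in edgeR), with a negative value under library totals only and log2(TPM + 1). GATAe, 5.02 kb from srp, was near 2 TPM, and grn did not pass the filter (6 and 5 counts after heat shock, 1 and 0 in untreated cells).

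Of 15 other scavenger receptors, 3 were tested and all 3 were called higher under TMM (21.6% of all genes tested were), with 12 below the filter. emp, a CD36-related gene known from epithelia, had 54 and 58 counts after heat shock and 19 and 6 in untreated cells (log2 fold change 2.55 ± 0.37 SE, adjusted p = 0.000662 in edgeR), with the stressed pair high and the untreated pair apart from each other. With 19 and 6 counts the untreated pair of emp would not have passed the filter alone, so emp was tested through its heat shock counts. CG3829 was higher by 0.57 on the log2 scale and turned negative on the log2(TPM + 1) scale. pes, another CD36-related receptor, was the most abundant of the list. It had 69.6 and 67.2 TPM after heat shock and 79.0 and 77.0 TPM in untreated cells, and its direction was positive under TMM (0.29) and negative under library totals only and TPM. The count ratio of crq to pes was 1.42 and 1.41 after heat shock, against 2.38 and 2.36 in untreated cells, so it was lower in both stressed libraries. Sr-CIII, 74 bp from Sr-CI, ninaD and CG31741 were at 0 in all libraries.

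Other engulfment receptors and opsonins were mostly not called. Of 16 listed, 15 were matched and 12 tested. Tep4, a thioester protein (log2 fold change 0.39), and Dscam1, an immunoglobulin-domain receptor (0.23), were the genes called, both higher under TMM (21.6% of all genes tested were), and both turned negative under library totals only. The integrin beta gene mys was the most abundant, with 200 and 193 TPM after heat shock and 282 and 288 TPM in untreated cells, and was not called. The Nimrod and Draper-like list of 9 genes had no member tested, with summed levels of 1.41 and 1.44 TPM after heat shock and 1.09 and 0.80 TPM in untreated cells.

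Of 23 listed genes of engulfment signalling and phagosome maturation, 21 were matched and all 21 were tested. The test called 8 higher and 4 lower (21.6% and 18.9% of all genes tested were). The largest values among the higher genes were those of Rab5 (0.41), which marks early phagosomes, and Rac1 (0.39), the GTPase of actin remodelling, and all 8 turned negative under library totals only. Those with the lowest values were mbc (-0.61 ± 0.08 SE, adjusted p = 0.000288 in edgeR) and Ced-12 (-0.33), the exchange factor pair that activates Rac downstream of engulfment receptors. mbc had 443 and 425 counts after heat shock and 907 and 846 in untreated cells. All 4 lower genes kept their sign and their call under library totals only. That scaling moved the all-gene median by -0.53, so it could not have reversed a lower gene and is no check on these 4. With DESeq2 the count of lower genes was 1. Over the 5 lists together 46 genes were tested, with 19 called higher and 4 lower, or 23 of 46 against 40.5% of all genes tested.

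**Figure D5:**
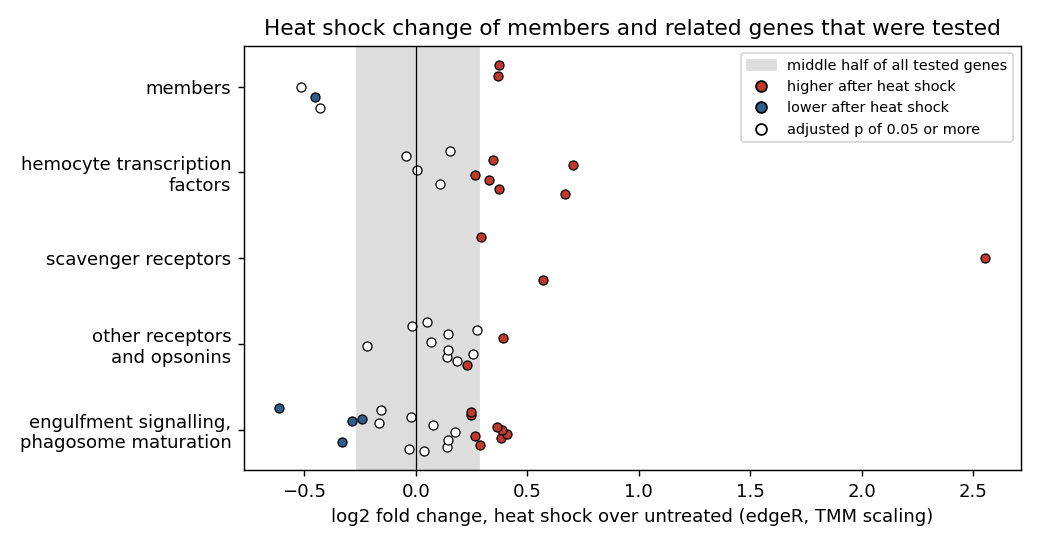
log2 fold change (heat shock over untreated, TMM scaling) of each gene tested, by list, with filled points for genes called by edgeR and a grey band from the lower to the upper quartile of all genes tested (-0.26 to 0.29). crq and mbc lie left of the band. The point farthest right is emp at 2.55, which passed the filter through its heat shock counts.

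Markers of other tissues moved in part with heat shock. The summed fat body list was 16.0 and 15.5 TPM after heat shock and 1.39 and 1.18 TPM in untreated cells, with 2 of 6 markers tested, both higher. These were the storage protein gene Lsp1beta (269 and 237 counts after heat shock, 11 and 10 in untreated cells) and Fbp1 (12 and 14 counts after heat shock, 4 and 3 in untreated cells). Fbp1 passed the filter through its heat shock counts, so only a rise could be tested, and DESeq2 did not call it. Lsp1beta made up nearly all of the fat body sum after heat shock, so the rise of the sum was mostly that of this gene. Yp1 had 4 and 0 counts after heat shock and 2 and 2 in untreated cells. Lsp2 had 1 and 0 counts after heat shock and 3 and 2 in untreated cells, and neither gene passed the filter. Fbp2 was at 0 in all libraries. Neuron markers summed to 25.4 and 26.9 TPM after heat shock and 29.3 and 32.7 TPM in untreated cells. Most of this came from elav (27.4 and 30.6 TPM in untreated cells), a level near that of the plasmatocyte marker Col4a1. Germline markers summed to 9.28 and 8.94 TPM after heat shock and 11.6 and 11.9 TPM in untreated cells. Muscle markers summed to 809 and 821 TPM after heat shock and 820 and 897 TPM in untreated cells, nearly all from Tm1, which non-muscle cells also use. Epithelium markers summed to 10.2 and 10.4 TPM after heat shock and 11.4 and 11.4 TPM in untreated cells. Under TMM 2 of the 4 neuron markers tested were called higher on the log2 scale (nSyb 3.27, brp 0.59). So were 2 of 3 muscle markers tested (Mlc2 0.46, Tm1 0.42) and 2 of 3 epithelium markers tested (shg 0.55, crb 0.30). Of all genes tested 21.6% were called higher. Among the markers called, Mlc2, Tm1 and crb turned negative under library totals only, and Mlc2, Tm1, crb and brp on the log2(TPM + 1) scale. DESeq2 did not call brp, Mlc2, shg or crb. nSyb (29 and 17 counts after heat shock, 4 and 2 in untreated cells) also passed the filter through its heat shock counts. The part of these markers in the changes of srp, ush and crq was not tested.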

How the data were processed

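Gene tables of 2 heat shock and 2 untreated libraries were used. The authors deposited estimated counts and TPM per gene, made from trimmed and aligned reads. The submitters' processing notes name Trimmomatic 0.36, STAR 2.6.1c and RSEM 1.3.1, and the build is BDGP6 (dm6), genome release 6. The study's methods name featureCounts for gene counts, with no strand option listed, whereas the tables used here have RSEM columns. Their strand setting is not given in the sources used here. Tables pooled over replicates were not used. Other deposited columns held effective lengths and posterior standard deviations of counts. Symbols and coordinates came from the Ensembl annotation and matched 17570 of 17697 genes.

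Estimated counts were rounded, filtered with filterByExpr, scaled by TMM and tested with edgeR 4.0.16 (glmQLFit, robust) in R 4.3.3, with Benjamini-Hochberg adjustment over 8784 genes and a threshold of 0.05. Alternatives used DESeq2 1.42.0, limma 3.58.1, other scalings, filters and pseudocounts, each library left out in turn, and a replicate block. Library totals are given with the results, and depth limits the genes near 0. The symbols scb, Vps18, zip, nos and Hsp67Bb were not matched. All 9 genes are named, and from each list up to 2 called genes in each direction, genes at 0 in all libraries and the 3 most abundant may be named. For each gene tested the nearest gene by level is named. Overlapping genes, the GATA factors, bgm, Pxn, gcm, gcm2, lz and kn fall outside this rule and were named after their values were seen. The genes and lists were chosen with earlier results of these data known.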

Additional observations from a re-analysis of the deposited data

How the results depend on the processing

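The log2 fold change of crq kept its direction and call under all 14 alternatives, though the scalings that reversed srp and ush lower genes as a whole and could not have reversed crq. srp reversed to -0.16 under library totals only, -0.20 for log2(TPM + 0.1) and -0.19 for log2(TPM + 1), and ush to -0.16, -0.11 and -0.11. Not called in the main test, Hml was called under library totals only (-0.96) among alternatives that kept all libraries. Among the same alternatives drpr, also not called in the main test, was called under library totals only (-1.05), totals without heat shock genes (-0.70), log2(TPM + 1) (-0.61) and log2(TPM + 0.1) (-0.88). Of the 9 genes, 2 were called higher and 1 lower; higher became 0 under library totals only and both TPM scales, and lower became 4 under library totals only and 2 under totals without heat shock genes and both TPM scales. Over the 5 lists, 19 higher became 2 under library totals only and both TPM scales and 10 under totals without heat shock genes, and 4 lower became 31 under library totals only and both TPM scales, 8 under totals without heat shock genes and 1 with DESeq2. Genes called, 3556, became 7068 under library totals only (778 higher, 6290 lower), 6866 for log2(TPM + 1) (757, 6109), 6803 for log2(TPM + 0.1) (737, 6066), 1808 with DESeq2 (1216, 592, with 3604 adjusted p missing) and 2084 at an adjusted p under 0.01 (805 lower), and lower calls became 3524 under totals without heat shock genes. The scalings differ by construction in the share given to heat shock genes; other causes were not tested. Untreated levels as TMM-scaled CPM per kilobase, another unit, were 101 for crq, 67.6 for ush, 48.6 for srp, 1.3 for drpr, 0.148 for eater, 0.141 for Hml and 0.0602 for Sr-CI.

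Leaving out each library in turn, which assumes the lone library of a group varies like the other group, gave 2864 to 3771 genes called (1586 to 2003 higher, 1278 to 1768 lower), 3 to 4 of the 9 genes called (1 to 2 lower, 2 without heat shock replicate 2), and 1 to 4 list genes lower (1 without heat shock replicate 2). The log2 fold change ranged over these from 0.26 to 0.47 for srp, 0.24 to 0.48 for ush, -0.48 to -0.43 for crq, -0.86 to -0.22 for drpr and -0.73 to -0.16 for Hml. Untreated TPM, with 1 library left, ranged from 213 to 214 for crq, 135 to 150 for ush, 96.8 to 108 for srp, 2.68 to 2.82 for drpr, 0.21 to 0.42 for eater, 0.27 to 0.32 for Hml and 0.08 to 0.17 for Sr-CI.

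The groups share replicate numbers, but same-numbered libraries did not deviate together. The correlation of their deviations was -0.17 over genes tested and -0.38 over genes of at least 10 CPM. With the replicate block 3272 genes were called (1761 higher, 1511 lower), and no call among the 9 genes changed. A crossed pairing, chosen after seeing the data, called 4639 genes.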
